A study of Mus musculus with 23 samples.

Results

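The genes described here are the nuclear genes for oxidative phosphorylation in mouse liver. They were chosen by name and annotation: protein-coding genes outside the mitochondrial chromosome whose symbols start with Nduf, Uqcr, Cox4 to Cox8 or Atp5, together with Sdha, Sdhb, Sdhc and Sdhd, listed in both deposited tables with a mean of at least 10 raw counts in each. Of 22852 genes in both tables, 104 matched the names and 93 of those were protein coding. The paralogs Cox4i2, Cox6a2, Cox6b2 and Cox8b stayed under the count minimum, with means of 1.5 to 7.3 counts, which left 89 members. They comprise 37 structural subunits of complex I, 4 of complex II, 8 of complex III, 12 of complex IV and 17 of ATP synthase (complex V), and 11 other genes: 8 complex I assembly factors (Ndufaf1 to Ndufaf8), the supercomplex factor Cox7a2l, the low-oxygen paralog Ndufa4l2 and Cox5b-ps, a copy of Cox5b annotated as protein coding. Ndufa4 carries a complex I name and was counted with complex IV, where its protein is now placed.

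Oxidative phosphorylation couples the oxidation of NADH and succinate to the making of ATP. Complexes I and II pass electrons to ubiquinone, complex III passes them to cytochrome c, complex IV passes them to oxygen, and the proton gradient built on the way drives ATP synthase. In the liver this chain takes up the electrons released when fatty acids are oxidised. CPT1A sits in the outer mitochondrial membrane and makes the acylcarnitines in which long-chain fatty acids enter the organelle, so it stands upstream of that supply. A few core subunits are encoded by mitochondrial DNA, and all others, including every member here, are encoded in the nucleus and imported.

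Bulk liver RNA came from 23 mice in 4 groups: 5 B100-Control males (replicates 1, 2, 3, 4 and 6), 6 B100-LKO males, 6 B100-Control females and 6 B100-LKO females. All 4 groups shared the B100 background, a diet labelled WD for 16 weeks, and necropsy in the fed state, and LKO is the hepatic Cpt1a ablation of the series title. The labels give no age, and the Cre line or other means of the ablation is not given in the sources used here. Each mouse was labelled as a separate sample, sex coincided with the deposited table, and values below are CPM, read counts scaled by library size with TMM factors within each comparison's libraries, unless FPKM is named.

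Cpt1a checked the labels. It was at 303 to 431 CPM in control males and 42.2 to 96.8 CPM in LKO males (log2 difference -2.53, two-sided exact permutation p = 0.00216), and at 285 to 431 CPM in control females and 61.8 to 86.4 CPM in LKO females (-2.33, exact p = 0.00216). These are the smallest p-values that the samples allow. Libraries held 14224665 to 19626662 counts, and the 89 members took 1.34% to 1.88% of them. All 8 hepatocyte markers were detected in every group, and their summed level was 58240 to 108000 CPM.

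Promoter sequences are shown first, because some members hold motifs there that the choice by name did not use. RefSeq windows of 300 bases (250 before and 50 after the transcript start, build GRCm38.p6) were matched by symbol for 74 of the 89 members, with 79 windows. The motif of NRF1, a factor named for its link to respiratory genes, was searched as GCGCANGCG on both strands and was present in 23 of 79 member windows (29.1%), against 6.25% of all 32851 windows. The ETS and GABP motif CCGGAAG was present in 19 of 79 (24.1%) against 8.86%, and the YY1 motif AAGATGGCG in 8 of 79 (10.1%) against 1.4%. The ERR motif TCAAGGTCA was present in 2.53% against 0.423%, a share that rests on 2 of 79 member windows. CCAAT was present in 41.8% against 37.4%, and TATAAA in 8.86% against 13.6%. Median GC content was 59.0% in the member windows and 52.7% in all windows, and the part of base composition in these shares was not tested. No searched motif overlapped another in the windows printed, and NRF1 matches on both strands at one place are shown as 1 run. The 4 windows printed have every match in capitals, and each has its reason: Cox6a1 is the member with the highest FPKM and holds 2 NRF1 matches, Sdhd holds NRF1, ETS and ERR matches together, Ndufaf8 holds the YY1 match just after the start, and Atp5l, the ATP synthase subunit g with the lowest p of complex V in males, holds NRF1, ETS and TATA letters. They lie at chr5:115348909-115349208 (minus strand), chr9:50603800-50604099 (minus), chr11:120098684-120098983 (plus) and chr9:44920693-44920992 (minus) in GRCm38.p6, and are written 5′ to 3′ on the gene's strand.
Cox6a1: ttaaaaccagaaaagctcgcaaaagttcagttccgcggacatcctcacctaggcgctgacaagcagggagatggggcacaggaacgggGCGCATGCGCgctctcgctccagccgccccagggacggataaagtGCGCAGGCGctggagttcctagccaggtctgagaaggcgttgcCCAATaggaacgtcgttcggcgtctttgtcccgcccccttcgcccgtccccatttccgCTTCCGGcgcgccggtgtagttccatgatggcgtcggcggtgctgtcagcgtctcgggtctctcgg
Sdhd: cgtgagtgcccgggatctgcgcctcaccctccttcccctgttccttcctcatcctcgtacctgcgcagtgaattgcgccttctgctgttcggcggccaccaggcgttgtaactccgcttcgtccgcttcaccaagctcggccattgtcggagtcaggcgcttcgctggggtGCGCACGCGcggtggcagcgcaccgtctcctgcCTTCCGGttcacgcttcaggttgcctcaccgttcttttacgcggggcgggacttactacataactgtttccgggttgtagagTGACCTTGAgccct
Ndufaf8: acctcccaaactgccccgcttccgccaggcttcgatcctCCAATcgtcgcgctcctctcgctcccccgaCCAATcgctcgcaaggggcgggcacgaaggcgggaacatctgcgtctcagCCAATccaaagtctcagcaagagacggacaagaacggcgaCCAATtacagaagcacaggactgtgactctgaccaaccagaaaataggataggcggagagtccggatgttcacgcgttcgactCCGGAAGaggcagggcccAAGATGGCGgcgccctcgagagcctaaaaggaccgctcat
Atp5l: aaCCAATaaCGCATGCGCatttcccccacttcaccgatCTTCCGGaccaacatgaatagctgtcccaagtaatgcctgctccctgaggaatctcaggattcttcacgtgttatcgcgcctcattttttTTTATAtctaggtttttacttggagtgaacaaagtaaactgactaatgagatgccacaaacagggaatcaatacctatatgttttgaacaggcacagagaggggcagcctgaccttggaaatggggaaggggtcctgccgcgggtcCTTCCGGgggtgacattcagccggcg
In Cox6a1 the capitals mark GCGCATGCGC and GCGCAGGCG (NRF1), CCAAT, and CTTCCGG, which is the ETS motif on the other strand, 16 to 10 bases before the start. In Sdhd they mark GCGCACGCG (NRF1), CTTCCGG and TGACCTTGA, the ERR motif on the other strand. In Ndufaf8 they mark 4 CCAAT matches, CCGGAAG and AAGATGGCG. In Atp5l they mark CCAAT, CGCATGCGC, which is the NRF1 motif on the other strand, 2 CTTCCGG matches and TTTATA, the TATA letters on the other strand. In males the median log2 fold change, LKO against control, was -0.23 both for the 22 members with an NRF1 match and for the 52 without one.

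Members differed widely in level. Over all 23 livers the mean deposited FPKM, which is scaled per length of the gene, ran from 1.81 for Ndufb2 to 870 for Cox6a1 (869.6 ± 125.3, SD, n = 23). Cox8a followed at 559.9 ± 83.2 and Cox4i1 at 388.8 ± 47.6, so that the 3 highest members were all nuclear subunits of complex IV in their general isoforms. The catalytic subunits of ATP synthase, Atp5a1 (alpha) and Atp5b (beta), were next at 335.2 ± 18.9 and 329.7 ± 20.6, which did not differ beyond their spread. This order depends on length: Cox6a1 and Cox8a have 702 and 619 bp in the tables, and Atp5a1 and Atp5b 3135 and 4237 bp. By raw counts Atp5b and Atp5a1 were the highest members, with male means of 22757.0 and 17168.5 against 10660.2 for Cox6a1 and 5949.5 for Cox8a. The median FPKM was 171 for complex III, 165 for complex IV, 106 for complex II, 75.1 for complex V and 59.9 for complex I, and 9.34 for assembly factors and other members. At the low end stood Ndufb2, an accessory subunit of complex I whose length in the tables, 5628 bp, lowers its FPKM, then Ndufa4l2 (2.57 ± 0.862) and Cox7a1, the heart and muscle isoform (2.59 ± 1.02). The plot of levels by complex shows these ranges.

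**Figure D1:**
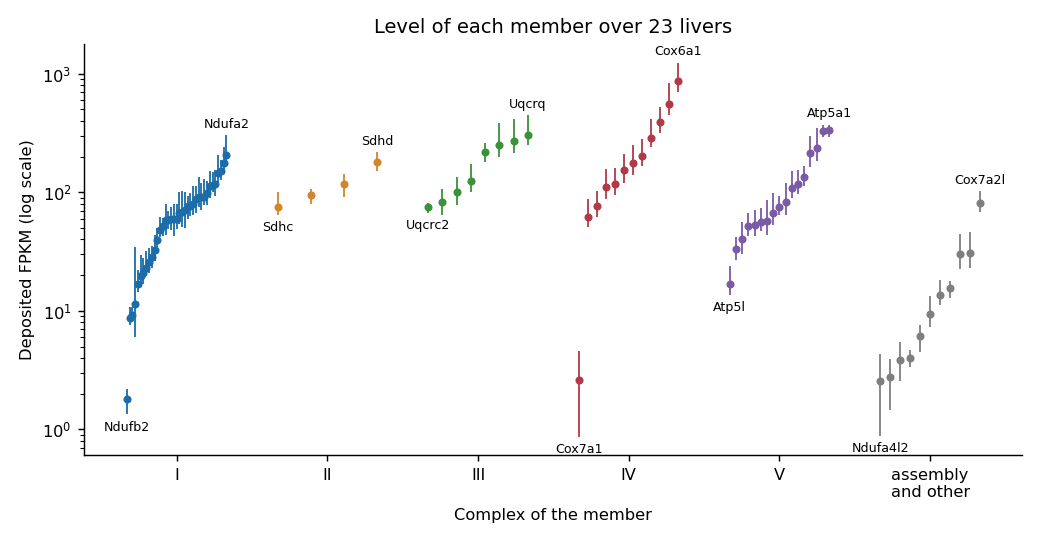
Deposited FPKM (log axis) of each of the 89 members, ordered by level within its complex; points are means over 23 livers and lines run from the lowest to the highest liver. Cox6a1 at 869.6 and Cox8a lead complex IV, while Cox7a1 lies near the bottom of the plot, and Ndufa12 has the longest line of complex I, from 5.98 to 34.3.

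Isoforms of one subunit had unequal levels. Cox7a2, the general isoform, was at 153.6 ± 21.6 FPKM and Cox7a1 at 2.59, Ndufa4 was at 203.1 ± 30.4 and its paralog Ndufa4l2 at 2.57, and the supercomplex factor Cox7a2l was at 80.6 ± 8.11. Among the 3 genes that encode the same mature c subunit of the ATP synthase ring, Atp5g3 was highest (215 ± 27.6 FPKM), Atp5g2 intermediate (82.9 ± 11.6) and Atp5g1 lowest (40.7 ± 7.89). Atp5g1 has a gene length of 4912 bp and Atp5g2 one of 1675 bp, which lowers the FPKM of Atp5g1 beside that of Atp5g2. By raw counts Atp5g1 was above Atp5g2, with means of 2853.5 against 2293.9 in males and 3709.9 against 2306.1 in females. The c-ring genes and Cox5b with Cox5b-ps have near-identical stretches, and how the authors' counting split shared reads is not given in the sources used here. The coefficient of variation over the 23 livers had a median of 13.1% among members. It was smallest for Uqcrc2 (5.11%), a core protein of complex III, and for Atp5a1 (5.64%), and largest for Ndufa12 (67.7%), an accessory subunit of complex I.

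In males, most members were lower in LKO livers than in controls, but none passed the test. Of 89 members, 84 had a negative log2 fold change and 5 a positive one, with a median of -0.23, beside a median of 0.010 over all 13805 genes tested and 47.9% of all genes negative. Structural subunits of complex IV, V and III and the accessory subunits of complex I were the most uniform: 12 of 12, 16 of 17, 8 of 8 and 30 of 30 were negative. By edgeR's quasi-likelihood test with Benjamini-Hochberg adjustment, 0 of 89 members were called at an adjusted p under 0.05, where 0.00724% of all genes (1 of 13805, Cpt1a) were called. The lowest adjusted p of a member was 0.245. At an unadjusted p under 0.05, 47 members were lower (52.8%), against 7.22% of all genes, and 1 member was higher, against 5.23%. The DESeq2 Wald test called 6 members, all lower, of 86 to which it gave an adjusted p (6.98%), against 0.99% of all genes lower. The authors' deposited table called the same 6: Ndufa12 (adjusted p = 0.0138), Uqcrq (0.0340), Ndufa2 (0.0378), Atp5l (0.0389), Ndufb9 (0.0470) and Atp5j2 (0.0495), where 0.438% of its genes had an adjusted p under 0.05. That share is over all 24434 genes listed, and the 0.99% is over the 7374 genes to which DESeq2 gave an adjusted p, so the shares have unlike bases. The deposited log2 fold changes and adjusted p-values of these 6 equal those of the DESeq2 fit, so they are no second source. In bulk tissue fewer cells of a type and less RNA per cell cannot be told apart.

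**Figure D2:**
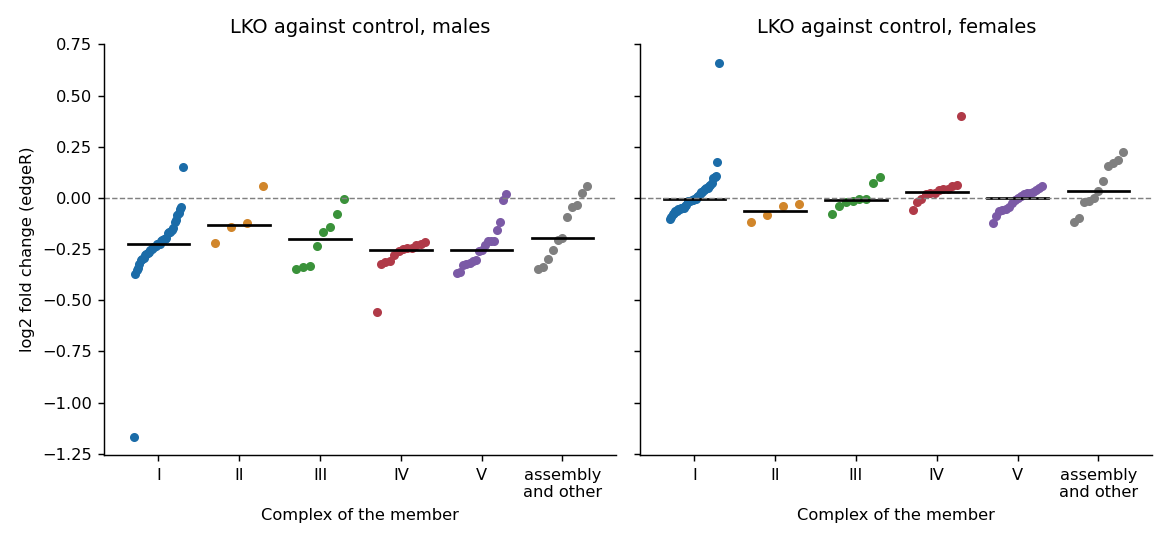
log2 fold change (edgeR, LKO against control) of each member, left in males and right in females, ordered by value within its complex; black bars are medians. In males the medians of complexes I, III, IV and V lie between -0.20 and -0.25, and in females all medians lie from -0.063 to 0.036; Ndufa12 is the lowest point in males and the highest in females.

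Complex I takes electrons from NADH. Of its 37 structural subunits 36 were lower in LKO males (median -0.22), 21 of them at an unadjusted p under 0.05. The 7 core subunits, which hold the flavin and the iron-sulfur clusters, had a median of -0.17 and the 30 accessory subunits one of -0.23. Ndufs1, the largest iron-sulfur subunit, was the exception and was higher: 67.8, 70.7, 72.0, 70.7 and 78.1 CPM in control males and 75.9 to 87.8 CPM in LKO males (0.15 on the log2 scale, SE 0.07, edgeR adjusted p = 0.391). Its groups overlapped through the highest control alone. Ndufa2, an accessory subunit, was at 131, 128, 125, 145 and 177 CPM in control males (replicates 1, 2, 3, 4 and 6) and at a lowest of 100, a median of 111 and a highest of 118 CPM in LKO males. All LKO values lay under all control values (-0.37 on the log2 scale, SE 0.10, edgeR adjusted p = 0.25). Ndufb9, also accessory, was at 93.0, 88.5, 80.2, 105 and 118 CPM in controls and 72.1 to 78.1 CPM in LKO males (-0.35, SE 0.09, edgeR adjusted p = 0.25), again without overlap. Ndufb8, whose protein is a common marker of complex I on blots, was at 98.4, 93.9, 84.7, 102 and 111 CPM in controls and 74.4 to 95.3 CPM in LKO males, with overlapping groups (-0.20, SE 0.09, edgeR adjusted p = 0.386).

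Ndufa12 (chr10:94034582-94057305 in the positions of the tables) had the largest difference and the widest spread. Control males were at 47.9, 11.9, 23.5, 18.3 and 41.0 CPM, and LKO males were at a lowest of 9.71, a median of 12.9 and a highest of 14.9 CPM. Control males 1 and 6 were highest and control male 2 lay inside the LKO range (-1.17 on the log2 scale, SE 0.29, edgeR adjusted p = 0.245, running from 0.0138 to 0.51 over the alternatives). Females showed the same kind of spread in the other genotype: LKO female 1 was at 54.1 CPM and LKO female 3 at 19.9, the other LKO females were at 9.36 to 13.6, and control females were at 11.5 to 13.7. In females LKO stood at 0.66 against control on the log2 scale (SE 0.35, edgeR adjusted p = 0.391), which was 0.077 without LKO female 1. The annotated processed pseudogene Ndufa12-ps (chr5:130217236-130217637) could share reads with it. Its level was 15.6 CPM in control male 1 and 18.02 CPM in LKO female 1, the lowest of their groups, and 21.8 to 32.4 CPM in all other mice. Among those others was control male 6, also high in Ndufa12, with Ndufa12-ps at 27.1 CPM. Summed over both genes, control males were at 38.7 to 68.2 CPM and LKO males at 31.8 to 40.7, and LKO female 1 was at 72.1.

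Complex II, which oxidises succinate and also belongs to the citric acid cycle, had the male median nearest 0 of the complexes (-0.13), over 4 genes and with no test between complexes. In females its 4 genes were all lower, and its median of -0.063 was the farthest from 0. The flavoprotein Sdha was at 386, 428, 401, 380 and 439 CPM in control males and 382 to 441 in LKO males (0.060 on the log2 scale, SE 0.08, edgeR adjusted p = 0.81). The iron-sulfur subunit Sdhb had -0.12 (SE 0.09, adjusted p = 0.618), and the membrane anchors Sdhc and Sdhd had -0.22 (SE 0.09, adjusted p = 0.358) and -0.14 (SE 0.09, adjusted p = 0.537). Groups of all 4 overlapped.

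All 8 subunits of complex III were lower in LKO males, with a median of -0.20 and a range from -0.35 to -0.0057. Uqcrq, a small subunit, was at 642, 621, 583, 700 and 824 CPM in control males and at a lowest of 507, a median of 525 and a highest of 567 CPM in LKO males. Every LKO male was below every control male (-0.35 on the log2 scale, SE 0.09, edgeR adjusted p = 0.261). Uqcrh, the hinge protein, and Uqcr11 also had no overlap, at -0.34 and -0.33. Uqcrc2 was at 196, 199, 187, 188 and 209 CPM in controls and 179 to 205 CPM in LKO males (-0.0057, SE 0.07, edgeR adjusted p = 0.985). The Rieske iron-sulfur protein Uqcrfs1 had -0.08 (SE 0.09, adjusted p = 0.774).

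All 12 nuclear subunits of complex IV were lower in LKO males, 11 of them at an unadjusted p under 0.05, with a median of -0.25. Cox8a had the lowest p: 408, 361, 377, 411 and 522 CPM in control males and 311, 331, 341, 340, 336 and 339 CPM in LKO males 1 to 6, with no overlap (-0.32 on the log2 scale, SE 0.10, edgeR adjusted p = 0.274). Cox4i1, the general form of subunit 4, was at 680, 596, 647, 705 and 816 CPM in controls and 503 to 612 in LKO males (-0.28, SE 0.10, edgeR adjusted p = 0.296), with LKO male 4 and LKO male 5 above the lowest control. Cox6a1 (-0.25), Cox6b1 (-0.25), Cox7a2 (-0.23), Cox7b (-0.26) and Ndufa4 (-0.22) were similar in size, each with an SE of 0.08 to 0.10 and an edgeR adjusted p of 0.307 to 0.371. Cox7a1 had the largest value of the complex (-0.56, SE 0.32, edgeR adjusted p = 0.502) at 0.475 to 1.82 CPM, a level where few reads were counted. Cox7a2l had -0.19 (SE 0.09, adjusted p = 0.411) and Ndufa4l2 -0.25 (SE 0.24, adjusted p = 0.712).

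In ATP synthase the alpha and beta subunits of the catalytic head had values near 0, and most others were lower. Atp5a1 was at 1003, 1038, 1038, 1055 and 1177 CPM in control males and 1022 to 1154 CPM in LKO males (0.017 on the log2 scale, SE 0.08, edgeR adjusted p = 0.955), and Atp5b at 1391, 1320, 1411, 1424 and 1568 against 1303 to 1577 CPM (-0.0093, SE 0.08, adjusted p = 0.979). The other subunits of the head and central stalk, Atp5c1 (gamma), Atp5d (delta) and Atp5e (epsilon), had -0.16, -0.32 and -0.31, and the 12 subunits outside them were all lower (median -0.26). Atp5l, subunit g, was at 116, 112, 118, 135 and 155 CPM in control males and at a lowest of 89.5, a median of 98.2 and a highest of 108 CPM in LKO males, without overlap (-0.36, SE 0.10, edgeR adjusted p = 0.25). Atp5j2, subunit f, was at 197, 179, 175, 222 and 235 against 151 to 171 CPM, also without overlap (-0.32, SE 0.09, adjusted p = 0.266). The c-ring genes had -0.36 (Atp5g1, SE 0.11), -0.33 (Atp5g2, SE 0.10) and -0.21 (Atp5g3, SE 0.10), with edgeR adjusted p-values of 0.274, 0.274 and 0.403. The plot of 6 genes by mouse sets 3 members without overlap in males beside Atp5b, Ndufa12 and its pseudogene.

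**Figure D3:**
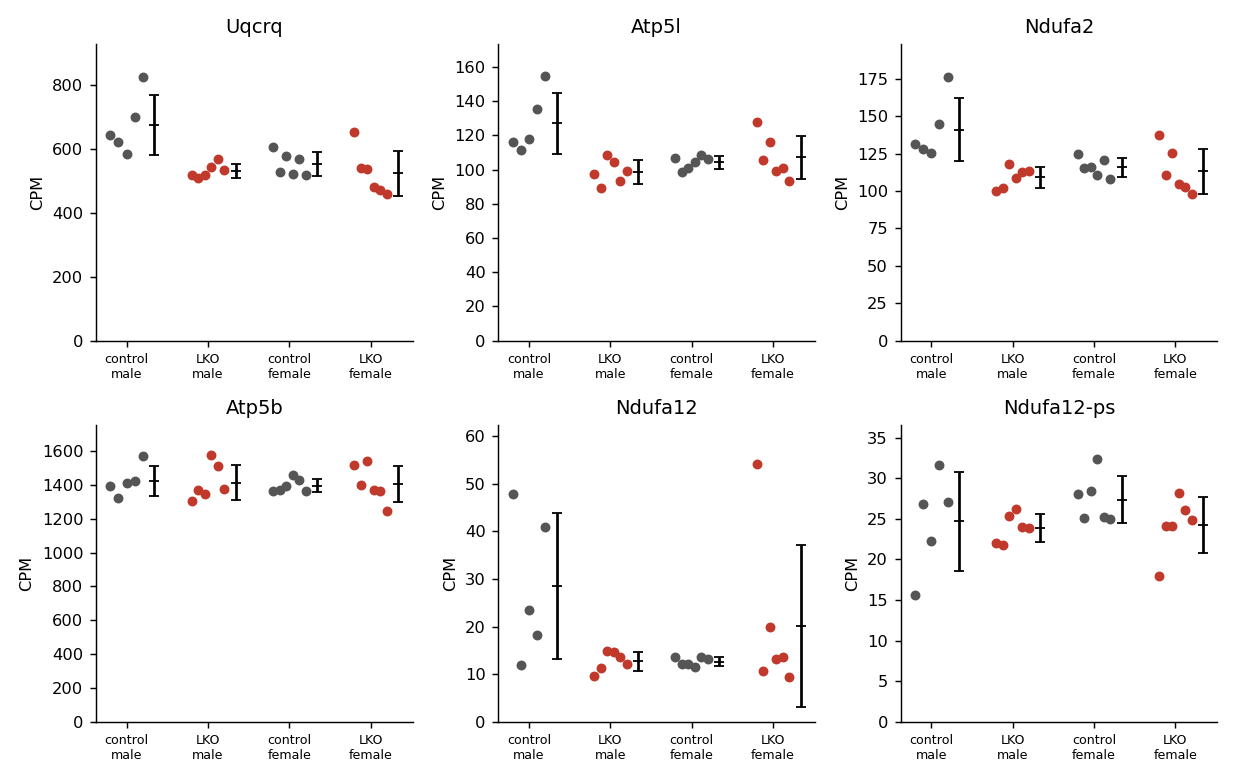
CPM of Uqcrq, Atp5l, Ndufa2, Atp5b, Ndufa12 and Ndufa12-ps in each mouse by group (grey control, red LKO; each axis starts at 0); bars beside the points are the mean and SD. Uqcrq, Atp5l and Ndufa2 have no overlap between the male groups, Atp5b has, and Ndufa12 is high in a few single mice, up to 54.1 CPM.

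Among assembly factors and other members 9 of 11 were lower in LKO males, with a median of -0.19. Ndufaf8, which acts in complex I assembly, was at 26.2, 25.2, 25.2, 33.5 and 39.3 CPM in control males and 19.6 to 25.01 CPM in LKO males, just without overlap (-0.34 on the log2 scale, SE 0.12, edgeR adjusted p = 0.308). In all, 14 members had no overlap between the male groups, all lower in LKO (15.7%), against 1.1% of all genes lower without overlap: Ndufa2, Ndufb4, Ndufb9, Ndufc1, Ndufc2, Ndufaf8, Uqcrq, Uqcrh, Uqcr11, Cox8a, Atp5d, Atp5g2, Atp5j2 and Atp5l.

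The mean over members placed single mice apart. Set against the mean of the controls of the same sex, on the log2(CPM + 1) scale, control males 1, 2, 3, 4 and 6 were at -0.040, -0.14, -0.16, 0.083 and 0.26, and the LKO males were at -0.28 to -0.13. Control male 6 exceeded the control mean in 89 of 89 members, and control males 2 and 3 lay within the LKO range. Without control male 6 the median log2 fold change was -0.15 and 23 members were lower at an unadjusted p under 0.05. Across the 11 fits that each left out 1 male, the median ran from -0.27 to -0.15, 81 to 86 members were negative and 0 were called in each. Control females were at -0.040 to 0.060. LKO females were spread on both sides: LKO female 1 was at 0.28, LKO female 3 at 0.12, LKO females 2, 4 and 5 at -0.027, -0.031 and -0.11, and LKO female 6 at -0.21. The SD was 0.17 in control males and 0.060 in LKO males, 0.037 in control females and 0.18 in LKO females. Other protein-coding genes up to 1000 bp, averaged in the same way, were at 0.25 in LKO female 1 and at -0.22 to -0.085 in LKO males, near the members. They were at 0.085 in control male 6 and 0.021 in LKO female 6, unlike the members. The part of gene length in the spread between mice was not tested.

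**Figure D4:**
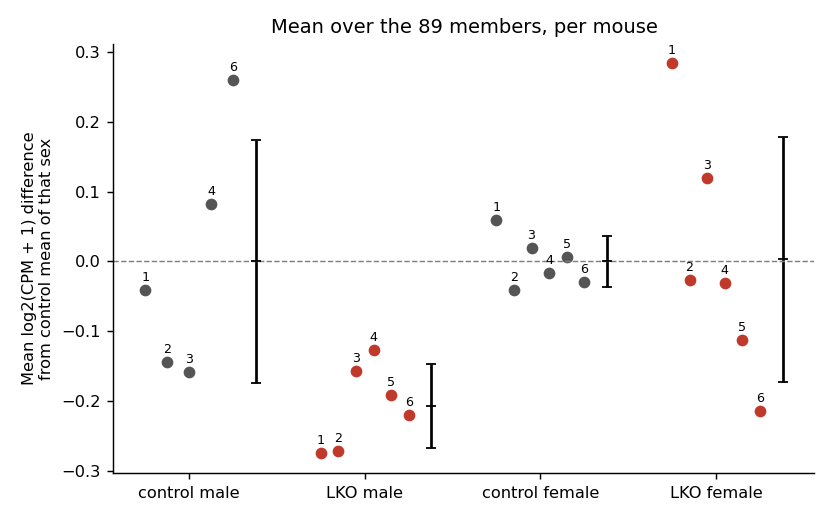
Mean log2(CPM + 1) over the 89 members in each mouse, set against the mean of the controls of the same sex; numbers are replicates and bars show the group mean and SD. Control male 6 (0.26) and LKO female 1 (0.28) are highest, LKO males lie from -0.28 to -0.13, and the groups overlap in both sexes.

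Gene length moved with the male result. The members are short, with a median length in the tables of 1675 bp against 4437 bp for the 12333 protein-coding genes tested, and 62.9% of members are at most 2000 bp long against 12.9%. Other protein-coding genes up to 1000 bp had a male median of -0.22 with 82.1% negative, and those over 2000 bp had 0.031 with 42.7% negative. Among genes of at most 2000 bp, 55 of 56 members were negative (median -0.25) with 62.5% at an unadjusted p under 0.05, against a median of -0.16 and 21.6% for 1534 other genes. Among longer genes, 29 of 33 members were negative (median -0.16) with 36.4% at that p, against 4.73% of 10710 other genes. Without control male 6 the medians up to 2000 bp were -0.17 for members and -0.12 for other genes, and up to 1000 bp they were -0.17 for 20 members and -0.18 for other genes, with 4 of those 20 and 22.3% of other genes lower at an unadjusted p under 0.05. In females other genes up to 1000 bp had a median of 0.054. The part of length in the members' values was not tested beyond these classes.

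**Figure D5:**
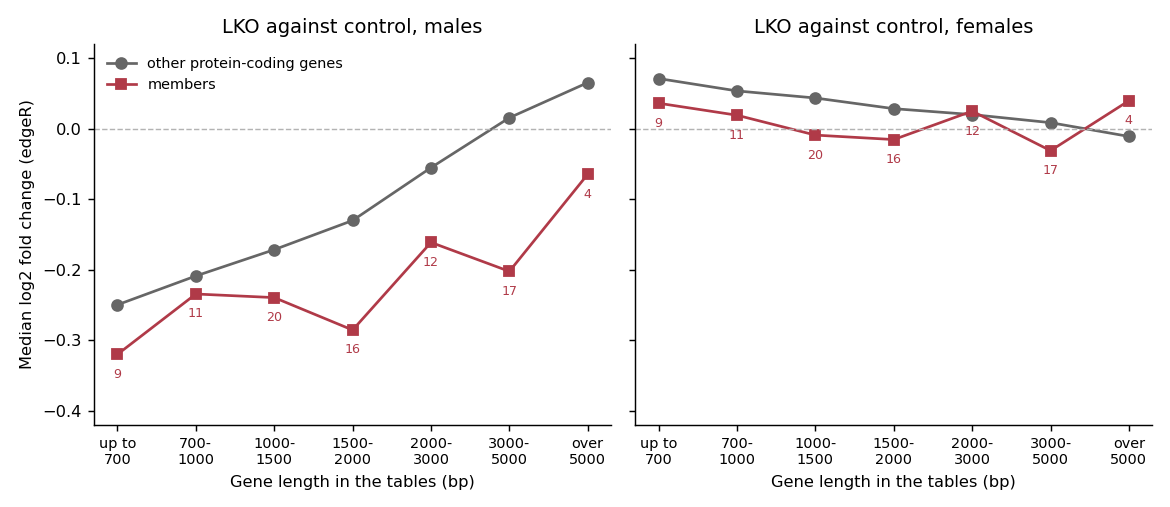
Median log2 fold change (edgeR, LKO against control) by class of gene length in the tables, for members (red squares, with their number) and other protein-coding genes (grey circles), in males (left) and females (right). In males the members ran from -0.32 up to 700 bp to -0.065 over 5000 bp and the other genes from -0.25 to 0.065, and the members lie lower in every class. Without control male 6 the members at 700 to 1000 bp were at -0.158 and the other genes at -0.1705.

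In females the members were centred on no difference. Of 89 members, 47 were lower and 42 higher in LKO livers, with a median of -0.0032 beside 0.0051 for all 13684 genes tested, of which 48.9% were negative. EdgeR called 0 members, where 1.42% of all genes were called, and 0 were at an unadjusted p under 0.05, where 7.33% of all genes were lower and 8.31% higher at that p. DESeq2 also called 0, against 3.64% of all genes, and 0 members had an adjusted p under 0.05 in the authors' deposited table, against 2.22% of its genes. The members' deposited values equal those of the DESeq2 fit and are no second source here either. Of the members 0 were without overlap between the female groups, where 0.548% of all genes were lower and 1.05% higher without overlap. The median changed sign among the 12 fits that left out 1 female, from -0.043 without LKO female 1 to 0.041 without LKO female 6. The genes that were without overlap in males overlapped here: Uqcrq was at a lowest of 516, a median of 548 and a highest of 605 CPM in control females and at 458, 508 and 651 in LKO females (-0.08 on the log2 scale, SE 0.09, edgeR adjusted p = 0.745), and Atp5l was at 98.9, 105 and 108 against 93.4, 103 and 128 CPM (0.04, SE 0.08, adjusted p = 0.866). LKO female 1 gave the highest value of its group in both. The lowest p of each complex belonged to Ndufa12, Sdha (-0.12, SE 0.07, adjusted p = 0.47), Uqcrfs1 (0.10, SE 0.09, adjusted p = 0.64), Cox7a1 (0.40, SE 0.30, adjusted p = 0.568) and Atp5g1 (-0.12, SE 0.10, adjusted p = 0.628), and that of the assembly factors to Ndufaf2 (0.23, SE 0.11, adjusted p = 0.35).

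The difference between the sexes was tested itself. The interaction contrast, females minus males, used the same control males and control females as the comparisons above. It had a median of 0.24 among members, with 82 of 89 positive, beside 0.0075 for all genes, of which 49.0% were negative. EdgeR called 0 of 89 members and 0 of 14503 genes (0.0%), and DESeq2 called 0 members against 0.532% of all genes. At an unadjusted p under 0.05, 26 members were positive, against 6.98% of all genes, and this count was 4 in either direction without control male 6 and 44 without LKO female 6. The lowest p-values were those of Ndufa12 (1.82, SE 0.50, edgeR adjusted p = 0.173), Atp5l (0.40, SE 0.12, adjusted p = 0.208) and Ndufb4, an accessory subunit of complex I (0.33, SE 0.11, adjusted p = 0.235). Ndufb4 was at 85.3, 77.2, 78.0, 96.1 and 96.9 CPM in control males and 67.4 to 74.7 in LKO males, at 69.1 to 77.7 in control females and 68.7 to 95.6 in LKO females.

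Control females differed from control males in 13 members, all lower in females (14.6% of members, against 9.2% of all 13699 genes called lower). DESeq2 called 19, all lower (21.3%), against 9.48% of all genes, 14 had no overlap and were lower in females, against 5.17%, and 78 of 89 were negative, against 49.5%. Length moved with these values too: other protein-coding genes up to 2000 bp had a median of -0.16 with 32.0% lower at an unadjusted p under 0.05, against -0.21 and 42.9% for the 56 members of that length, and other genes over 5000 bp had a median of 0.090. The part of length in these calls was not tested. Whether this is sex or the separately made tables cannot be told apart. Of the 13, 8 were among the 37 structural subunits of complex I and 4 among the 12 of complex IV, with no test between complexes. With CPM scaled over all 23 libraries, Cox7a2 had the lowest adjusted p: 176, 154, 158, 184 and 197 CPM in control males and a lowest of 124, a median of 133 and a highest of 145 CPM in control females (-0.38 on the log2 scale, SE 0.08, edgeR adjusted p = 0.00826). Ndufb3 was at 51.2 to 78.7 CPM in males and 43.6 to 47.8 in females (-0.44, SE 0.10, adjusted p = 0.0117). Ndufa12 had -1.14 (SE 0.28, adjusted p = 0.0142), with control male 2 inside the female range. Ndufa4 had -0.39 (SE 0.10, adjusted p = 0.0167), Ndufs5 -0.34 (SE 0.09, adjusted p = 0.0191), Ndufa10 -0.26 (SE 0.07, adjusted p = 0.02) and Cox6a1 -0.34 (SE 0.10, adjusted p = 0.0284). Ndufb6, Ndufs6, Cox8a, Ndufa1 and Ndufaf2 were also called, at -0.42 to -0.29 and edgeR adjusted p-values of 0.0325 to 0.0431. Of the 13, 6 (Cox7a2, Ndufa10, Ndufa12, Ndufa4, Ndufb3 and Ndufs5) were called in all 11 fits that left out 1 control. The count of calls was 6 without control male 1, control male 6, control female 5 or control female 6, 7 without control female 2, 8 without control female 1 and 23 without control male 2. Control male 6 was also the control male with the highest mean over members. No member was called higher in females, and Atp5g1 had the largest positive value (0.22, SE 0.12, adjusted p = 0.215).

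Genes around the chain gave few calls. Of the 13 mitochondrially encoded subunits 8 were higher in LKO males, 3 at an unadjusted p under 0.05 and a median of 0.11, and in females 12 of 13 were higher, 6 at that p, with a median of 0.29. EdgeR called 0 of them in either sex, and DESeq2 called mt-Atp6, mt-Cytb and mt-Nd4 higher in females (adjusted p 0.0102, 0.0141 and 0.0408), against 3.64% of all genes called in females. Over all genes 5.23% in males and 8.31% in females were higher at an unadjusted p under 0.05. Lists of cytochrome c and other electron carriers (8 genes), of assembly factors of complex I (12 tested), complexes II and III (10), complex IV (25) and complex V (5) had male medians of -0.052, -0.072, -0.14, -0.11 and -0.049 and female medians of 0.034, 0.00060, 0.098, 0.060 and -0.070. EdgeR called 0 of these in either sex, and DESeq2 called 0 in males and 1 in females, Cycs (cytochrome c), higher in LKO (adjusted p = 0.0156, edgeR adjusted p = 0.0758). At an unadjusted p under 0.05, 10 were lower and 2 higher in males, and 0 lower and 4 higher in females. At that p 7.22% of all genes were lower and 5.23% higher in males, and 7.33% and 8.31% in females. Of 14 regulators of mitochondrial biogenesis 0 were called, with medians of -0.018 in males and 0.015 in females: the coactivator Ppargc1a had 0.0012 and -0.17, and Gabpa had -0.20 and -0.14. Among 7 ADP, phosphate and uncoupling carriers tested, 1 was called: Ucp2, an uncoupling protein relative, was higher in LKO females (0.42 on the log2 scale, SE 0.09, edgeR adjusted p = 0.0384) and had 0.096 in males (adjusted p = 0.892). EdgeR called 1.42% of all genes in females. Among 18 genes of mitochondrial import, porins and chaperones and 16 of the citric acid cycle 0 were called, with male medians of -0.024 and 0.058 and female medians of 0.022 and 0.093.

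Markers of other cell types were set beside the male values. All 8 macrophage markers were higher in LKO males (median 0.32, 2 at an unadjusted p under 0.05, 0 called by edgeR), with summed levels of 207 to 377 CPM in controls and 311 to 461 CPM in LKO males and no marker at 0. Hepatocyte markers had a male median of -0.17 (5 of 8 lower, 0 called), with sums of 62460 to 91760 and 58240 to 83260 CPM. Stellate, endothelial, cholangiocyte, lymphocyte and neutrophil markers had male medians of 0.091, 0.11, -0.26, 0.22 and -0.74, with 0 called, and their summed levels overlapped between the male groups. Of the markers of brown fat and muscle, tissues that express Cox7a1, Ckm and Myh4 were at 0 or not listed in all groups and Ucp1 in control males. Cidea, a lipid droplet protein that fatty hepatocytes can also express, was at 0.324 to 88.3 CPM in control males (median 44.4) and 2.04 to 97.7 CPM in LKO males (median 69.2), and at most at 2.46 CPM in females, where DESeq2 called it lower in LKO (adjusted p = 0.0271) and it did not pass the low-count filter for edgeR. The list also held Actn3 and Tnnt3. Its summed level was 0.203 to 7.1 CPM in control females and 0.127 to 0.497 CPM in LKO females. The 7.1 CPM lay above every Cidea value in females, so other markers of the list were detected in that mouse. In females edgeR called Trem2 and Gpnmb of the macrophage list and Spp1 of the cholangiocyte list, all higher in LKO, and DESeq2 called these and Col3a1 of the stellate list higher. Over all genes in females, edgeR called 1.42% and DESeq2 3.64%. Of the 8 macrophage markers 4 were higher and 4 lower in LKO females, with a median of 0.011. The part of these cells in the members' values was not tested.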

How the data were processed

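Poly-T beads captured the liver mRNA, and random hexamers and dUTP served for the libraries, per the labels' protocols, and HISAT2 2.0.5 and mm39 are named in the submitters' processing notes. The authors deposited 1 table per sex with raw read counts and FPKM per gene. The deposited tables also hold a normalized signal per sample, and, from the authors' own comparison, a log2 fold change with its p-value, raw and adjusted, for each gene. Whether the counting used the strand, and the counter, are not given in the sources used here, so overlapping, antisense and copied genes are uncertain. No sample column was left unmapped (0).

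The deposited counts were tested with edgeR 4.0.16 in R 4.3.3 (filterByExpr, TMM factors, quasi-likelihood test, Benjamini-Hochberg over all genes tested, called below an adjusted p of 0.05), for males and females apart, and over genes of both tables for the interaction and for control females against control males. All 89 members passed the low-count filter in every comparison. CPM were scaled by TMM factors, with 1 added before log2. The edgeR test gives no SE itself. The SE printed with an edgeR log2 fold change is its absolute value divided by the square root of the F statistic, an approximation. Cpt1a was compared by an exact permutation test. Labels do not say how mice were drawn, so p-values measure the spread between these samples. The test was checked on simulated counts with 200 changed genes. Their changes were set larger than the members' medians, so the check does not reach differences of that size.

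The members and all lists were chosen with earlier results of these data known. Named members were those called in any comparison, those with the lowest p per complex and sex or for the interaction, the 3 highest and 3 lowest by FPKM, complex II, blot-panel members and paralogs. Ndufa2, Ndufb9, Atp5j2, Atp5b and Ndufs1 were named after their values were seen, as were the members without overlap. One named member is counted but its values are not reported here. Alternatives were RLE factors, library size alone, no filter, at least 10 counts in every sample, DESeq2 1.42.0, limma-trend (limma 3.58.1) on log2(FPKM + 1), a replicate block and leaving out each sample.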

Additional observations from a re-analysis of the deposited data

Results flagged for a closer look

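In groups of 5 or 6 mice, the highest or lowest value of a member was checked for a gap to the others larger than chance usually gives. Chance flags about 1 in 20 groups, and 8 of 160 groups of values had such a gap, no more than that share. In males, Ndufs5 was at 115.9 CPM in control male 6, above 83.3 to 89.9 in the other controls. Cox8a was at 311.1 CPM in LKO male 1, under 331 to 341 in the others, and Ndufaf8 at 19.62 CPM in the same mouse, under 24.1 to 25.01. In control female 1, Atp5g2 was at 152.1 CPM, above 131 to 137, and Cox6b1 at 208.4 CPM, above 182 to 189. In LKO female 1, Ndufa12 was at 54.11 CPM, above 9.36 to 19.9, Ndufb4 at 95.62 CPM, above 68.7 to 75.6, and Ndufb2 at 10.69 CPM, above 9.21 to 9.77. These values stand beside the mean over members, where control male 6 and LKO female 1 were the highest mice of their groups.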

How the results depend on the processing

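The edgeR count of called members was 0 in males and 0 in females under every edgeR setting run, under limma-trend and in each fit that left out 1 sample, and that of the interaction was 0 in all its settings. DESeq2 called 6 members in males and 0 in females. The male median of -0.23 ran from -0.27 (without control male 2) to -0.15 (without control male 6) when 1 mouse was left out, and from -0.23 to -0.16 under the other settings. The female median ran from -0.043 to 0.041 when 1 mouse was left out and from -0.013 to 0.036 otherwise. Between control sexes the 13 calls were 26 with library size alone, 5 without a filter and 6 to 23 when 1 control was left out, and the cause was not tested. Of 3074 values of named members under the alternatives 99 had another sign than in the fit reported, and all 99 were uncalled and within 1 SE of 0 in both, by the SE of the fit reported. Cpt1a in males was -2.6 with the replicate block (exact p = 0.0625, the smallest that 5 pairs give).

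Replicate numbers are shared between the genotypes of a sex. Deviations of same-numbered mice correlated at -0.42 to 0.43 over the 5 male pairs and -0.0070 to 0.20 over the 6 female pairs, and 1 of 5 and 4 of 6 correlated best with their own number. In males 1 of 5 pairs and in females 5 of 6 were over 0.1 (0.13 to 0.20 in females). Pairing was taken only where every pair exceeded 0.1, which neither sex met, although in females 1 pair alone fell short. With the replicate block 0 members were called in either sex, the medians were -0.22 and -0.0082, and the calls over all genes numbered 2 rather than 1 in males and 334 rather than 194 in females.

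Cox7a1 and Ndufa4l2, which have few reads, and Ndufa12, which varied between mice, have the widest errors, and the number of mice, 5 or 6 a group, limits the precision.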
